A study of Homo sapiens with 8 samples.

Results

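The genes described here are 51 genes of the DNA damage response and of replication fork repair, picked by symbol among the 18388 genes of the expression table. They cover 9 roles, from the checkpoint kinases to homologous recombination, the Fanconi anaemia pathway, the RecQ and G4 helicases and end joining. All 51 were listed, and 48 of them had 100 reads or more in 3 or more of the 6 libraries compared and were tested, beside 10138 genes in all. The 3 genes below it were FANCB, XRCC3 and LIG4. The cells were U-2OS Tet-ON, an established human osteosarcoma line that carries the tetracycline-regulated transactivator, and all groups share this background. They were transfected with 50 nM control siRNA (siControl, 3 libraries) or with a pool of siRNAs against CGGBP1 (siCGGBP1, 3 libraries) and were collected after 72 h. For the last 60 min the medium held 75 µM 4-thiouridine (4sU), a uridine analog that marks newly made RNA through T-to-C conversions in the reads. One siControl library had 0 µM and another 200 µM 4sU, and the sample titles also carry the word DMSO, whose part no protocol explains. The knockdown was made with a pool in 1 cell line, and the study counts its 3 libraries a group as biological replicates, while no label says that they came from separate cultures, so the p-values may measure only the spread between these libraries.

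When a replication fork stalls, ATR with its partner ATRIP, helped by TOPBP1, activates the kinase CHK1 (CHEK1), which holds back the cell cycle. Double-strand breaks are sensed by the RAD50-NBN-MRE11 complex and ATM and are then joined end to end or copied from the sister chromatid with the help of BRCA1, BRCA2 and PALB2. The Fanconi anaemia proteins mark stalled forks by ubiquitination of FANCD2 and FANCI, and RecQ helicases such as BLM unwind the structures that forks leave behind. CGGBP1 is a protein that binds CGG repeats in DNA, many of them in promoters, and the comparison asks whether its loss altered the mRNA of the genes that protect forks.

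Since CGGBP1 binds CGG tracts, the promoters of the repair genes were searched for at least 3 uninterrupted CGG repeats (CGGCGGCGG, either strand). Windows of 250 bases before to 50 bases after the start were taken from RefSeq (GRCh38.p14) and were at hand for 46 of the 51 genes. Such a tract stood in the window of 3 of the 46 genes (6.52%), beside 14.7% of the tested genes that had a window and 6.21% of all 35116 windows. The share in the repair genes was thus not above that of the tested genes. The 3 tracts are shown because they are the only ones of this length in the 46 genes, with the repeat in capitals on the gene's strand.

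ATRIP, partner of ATR, chr3:48446899-48446928, plus strand, 217 bases before the start: tcgccccggcCCGCCGCCGggcaccgggca
FANCA, Fanconi core complex, chr16:89816625-89816654, minus strand: gcgcagggagCCGCCGCCGgggctgtaggc
PARP2, poly(ADP-ribose) polymerase at DNA breaks, chr14:20343655-20343684, plus strand: ggcgacggagcacCGGCGGCGGcagggcga

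Total RNA of none of these 3 genes passed the test. The log2 fold change (siCGGBP1 over siControl) was −0.39 ± 0.65 (SE) for ATRIP, 0.19 ± 0.40 for FANCA and −0.67 ± 0.39 for PARP2. With 2 repeats in place of 3, 24 of the 46 windows matched (52.2%), beside 59.6% of the tested genes.

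E2F factors drive many genes of S phase and bind letters such as TTTCGCGC, TTTGGCGC, TTTCCCGC and TTTGCCGC. At least 1 of these 4 runs, on either strand, stood in the windows of 8 of the 46 genes (17.4%), beside 7.23% of the tested genes and 3.31% of all windows. The genes were TOPBP1, XRCC2, EXO1, FANCA, FANCC, FANCD2, XRCC6 and MSH6. Sites of 4 of them are shown, those nearest to the start, with the matched letters in capitals.

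FANCD2, chr3:10026424-10026453, plus strand: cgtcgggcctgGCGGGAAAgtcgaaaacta
TOPBP1, chr3:133661930-133661959, minus strand: ccgcgcggttgGCGCGAAAgtcggttcccg
MSH6, chr2:47783137-47783166, plus strand: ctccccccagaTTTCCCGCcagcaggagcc
EXO1, chr1:241848197-241848226, plus strand: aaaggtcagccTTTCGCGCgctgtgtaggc

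Of these 8 genes, 7 had a log2 fold change below 0, with a median of −0.33, from −0.95 (FANCD2) to 0.19 (FANCA). CCAAT, the letters that NF-Y binds, stood in 25 of the 46 windows (54.3%), beside 43.9% of the tested genes. A match is a run of letters and was not tested as a site, and BRCA1 and CHEK1 held none of the E2F-type runs in their windows.

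CGGBP1 itself was measured first, as a check of the knockdown. Normalized reads (read counts scaled to a common library size) were 1250, 1086 and 895 in siControl and 212, 117 and 361 in siCGGBP1. All siCGGBP1 libraries were below all siControl libraries, by 4.67-fold (log2 fold change −2.22 ± 0.39, adjusted p = 0.0137, edgeR quasi-likelihood test with Benjamini-Hochberg adjustment over all tested genes, as throughout). The adjusted p was 0.0632 without the first siControl library and 0.0851 without the first siCGGBP1 library. The 6 libraries held 10127519 to 14221516 reads, and the repair genes took 0.423% ± 0.0228 of them in siControl and 0.366% ± 0.0267 in siCGGBP1 (SD, n = 3). The third library of each group stood apart from the others, being the highest or lowest of the 6 for 46.8% (siControl) and 51.2% (siCGGBP1) of all tested genes, against 24.01% to 27.3% for the other 4. Of the 8 mesenchymal and bone markers checked, 6 were listed and all 6 had at least 100 reads in every library, while COL1A2 and TWIST1 were not listed. Of the 8 markers of other cell types, 6 were listed, with EPCAM the highest at up to 184 reads and CD3E, CDH1 and PECAM1 at 0.

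In total RNA no repair gene passed the adjusted p threshold of 0.05, against 1.76% of all tested genes. At an unadjusted p under 0.05 there were 3 of 48, all lower in siCGGBP1 (BRCA1, FANCD2 and CHEK1), where 16.4% of all genes passed in either direction. By the DESeq2 Wald test 1 of 47 repair genes passed (BRCA1), beside 6.76% of all genes. All 3 siCGGBP1 libraries lay below all 3 siControl libraries for 5 of the 48 (BRCA1, CHEK1, FANCD2, EME1 and XRCC5) (10.4%), where 12.3% of all genes did so. None lay above in all 9 pairs of libraries, where 12% of all genes did. The log2 fold change was below 0 for 30 of 48, where 50.2% of all genes were below 0, and the median was −0.18 against −0.003 over all tested genes. With 1 library left out there are fewer pairs to separate, and the share rises for all genes. The count was then 5 (10.4%, beside 16.2% of all genes) without the first siControl library, 8 (16.7%, beside 16.6%) without the second and 9 (18.8%, beside 17.7%) without the third. It was 11 (22.9%, beside 17.1%), 7 (14.6%, beside 16.9%) and 14 (29.2%, beside 18.2%) without the siCGGBP1 libraries in the same order. Without the third library of both groups, 20 of 48 repair genes (41.7%) had both siCGGBP1 libraries below both siControl libraries, beside 25.0% of all genes.

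The values ran from −1.21 (EME1) to 0.83 (FANCM), and 32 of 48 lay within 0.5 of 0 on the log2 scale. The median SE of a repair gene was 0.35, and the smallest log2 change that passed the threshold in any gene was 0.53, so changes of the size seen in most repair genes were not detectable with 3 libraries a group. These are bulk libraries, in which fewer cells of a kind and less RNA per cell cannot be told apart.

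**Figure D1:**
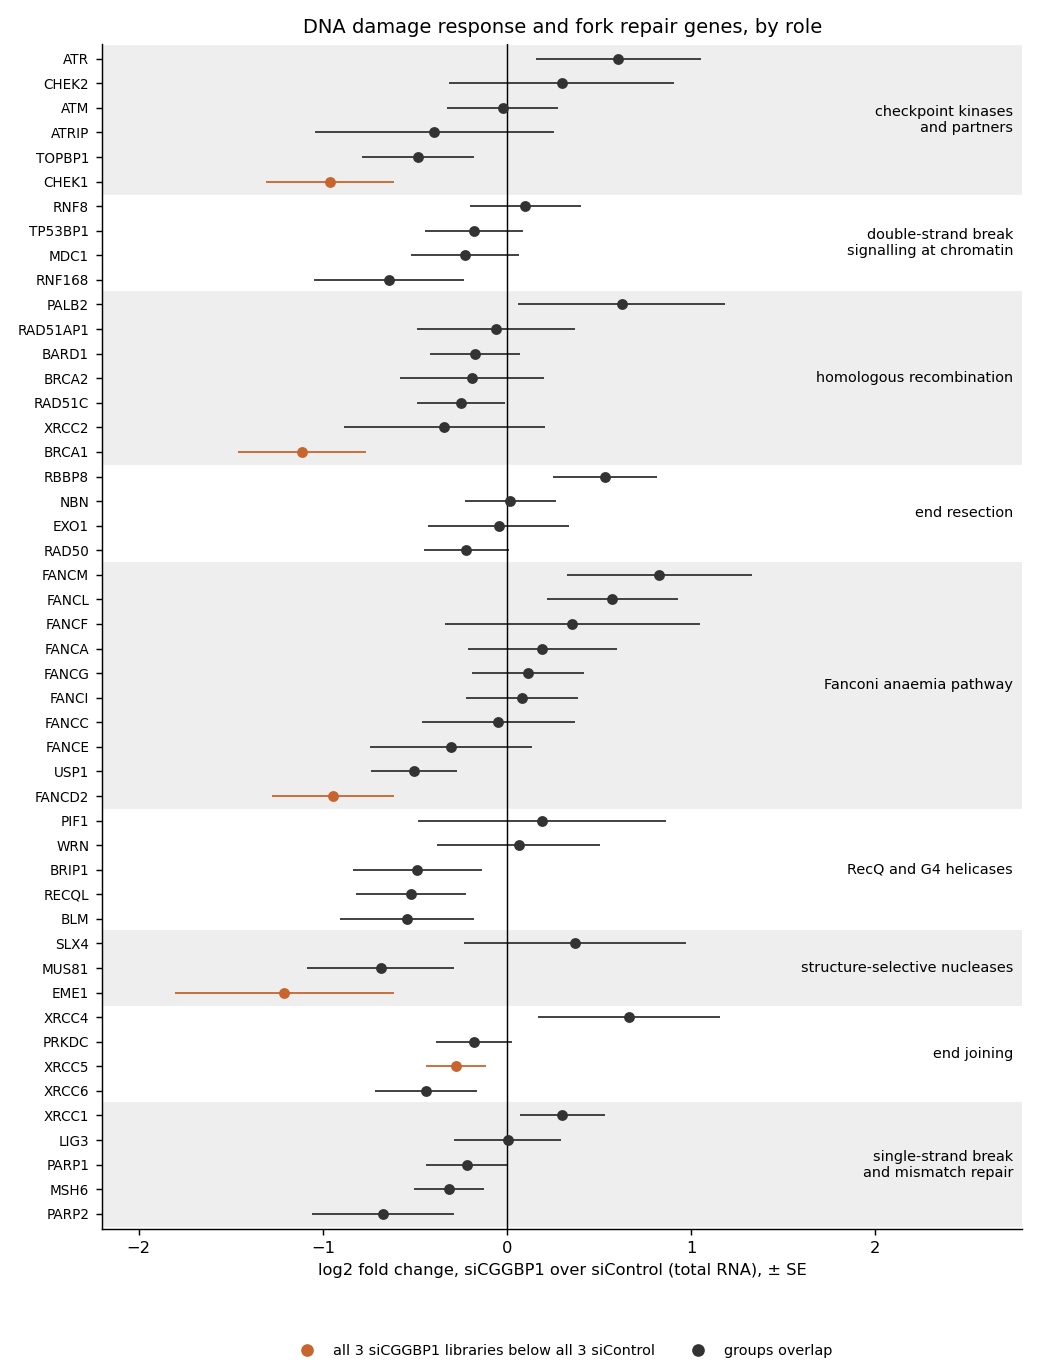
Log2 fold change of total RNA (siCGGBP1 over siControl, horizontal axis) with its SE for the 48 tested repair genes, grouped by role. Orange marks the 5 genes whose siCGGBP1 libraries all lay below the siControl libraries, and no gene passed the adjusted p threshold.

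Among the checkpoint kinases and their partners, 4 of 6 genes had a log2 fold change below 0. CHEK1, the kinase that ATR activates, had 643, 452 and 573 normalized reads in siControl and 232, 389 and 237 in siCGGBP1. The groups did not overlap, and the log2 fold change was −0.96 ± 0.35 (adjusted p = 0.188). TOPBP1, the activator of ATR, was at −0.48 ± 0.30 and ATRIP at −0.39 ± 0.65. ATR itself was at 0.60 ± 0.45, CHEK2, the kinase downstream of ATM, at 0.30 ± 0.61, and ATM at −0.02 ± 0.30.

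For the 4 genes that signal double-strand breaks at chromatin the median was −0.20 on the log2 scale. The lowest p belonged to RNF168, a ubiquitin ligase that marks histone H2A around breaks. Its normalized reads were 911, 595 and 1162 in siControl and 869, 593 and 251 in siCGGBP1. The first siCGGBP1 library lay within the siControl range and the third far below it (log2 fold change −0.64 ± 0.41, adjusted p = 0.475), and without the third library of both groups the log2 fold change was −0.03. MDC1 (−0.23), TP53BP1 (−0.18) and RNF8 (0.10), an adaptor, an end-protecting factor and a further ubiquitin ligase, lay closer to 0.

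Of the 7 tested genes of homologous recombination, 6 were below 0. BRCA1, the tumour suppressor that promotes resection and strand exchange, had 1848, 1259 and 960 normalized reads in siControl and 729, 809 and 342 in siCGGBP1. The means were 1356 ± 452 and 626 ± 250 (SD, n = 3), which do not overlap library by library and differ 2.16-fold. The log2 fold change was −1.11 ± 0.35, with an adjusted p of 0.128 by edgeR and of 0.0327 by DESeq2, so the call depends on the tool. It was also called with no filter on low counts (adjusted p = 0.0105) and without the third library of both groups (adjusted p = 0.0395). The latter setting was added after seeing the data, and in both settings the number of all genes called rose as well. With any single library left out BRCA1 was not called (adjusted p = 0.155 to 0.393). BARD1, the partner of BRCA1 in its ubiquitin ligase, was at −0.17 ± 0.24 and BRCA2, a mediator of strand exchange, at −0.19 ± 0.39. PALB2, which joins BRCA1 to BRCA2, was at 0.62 ± 0.56, with 487 reads in the third siCGGBP1 library and 130 to 214 in the other 5. RAD51C (−0.25), XRCC2 (−0.34) and RAD51AP1 (−0.06) each overlapped between the groups. XRCC3, which acts in the same pathway, had 33.3 to 109 normalized reads in siControl and 7.37 to 94.3 in siCGGBP1 and was not tested.

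End resection exposes the single strand from which homologous recombination starts. RBBP8, which encodes CtIP, was the only one of the 10 genes named in total RNA with a higher mean in siCGGBP1, at 1453, 1149 and 827 in siControl and 1489, 1235 and 2236 in siCGGBP1. The first siControl library lay above the second siCGGBP1 library, and the log2 fold change of 0.53 ± 0.28 did not pass (adjusted p = 0.375). Without the third library of both groups it was 0.075. NBN (0.02 ± 0.25) and RAD50 (−0.22 ± 0.23), partners in the break-sensing complex, and the exonuclease EXO1 (−0.05 ± 0.38) were near 0.

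The Fanconi anaemia genes went both ways, with 4 of 10 tested below 0 and a median of 0.10. FANCD2, the protein ubiquitinated at stalled forks, had 1189, 940 and 1190 normalized reads in siControl and 876, 506 and 342 in siCGGBP1. The groups did not overlap (log2 fold change −0.95 ± 0.33, adjusted p = 0.173), and without the third library of both groups the log2 fold change was −0.62 (adjusted p = 0.246). USP1, which removes that ubiquitin, had 4005, 2856 and 2660 reads in siControl and 2865, 1830 and 2023 in siCGGBP1. The first siCGGBP1 library lay within the siControl range, and the log2 fold change was −0.50 ± 0.23 (adjusted p = 0.306). FANCI, the partner of FANCD2, was at 0.08 ± 0.30, with 1633 reads in the third siCGGBP1 library against 708 to 1127 in the other 5. The core complex genes FANCA, FANCC, FANCE, FANCF, FANCG and the ligase gene FANCL lay between −0.30 and 0.57, and the translocase gene FANCM was highest at 0.83 ± 0.50. FANCB, also of the core complex, was below the filter, with 69.7, 78.2 and 135 normalized reads in siControl and 20.7, 52.5 and 0 in siCGGBP1.

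The helicases BLM (−0.54 ± 0.36), BRIP1 (−0.49 ± 0.35) and RECQL had the lower values of their role, while PIF1 (0.19 ± 0.67) and WRN (0.06 ± 0.44) lay above 0. RECQL, a RecQ helicase that restarts forks, had 1001, 856 and 779 normalized reads in siControl and 553, 440 and 842 in siCGGBP1. The third siCGGBP1 library reached into the siControl range (log2 fold change −0.52 ± 0.30, adjusted p = 0.415), and without the third library of both groups the log2 fold change was −0.90 (adjusted p = 0.0735). Of the structure-selective nucleases, EME1, the partner of MUS81 in cutting stalled forks, had 158, 195 and 361 reads in siControl and 77.0, 77.3 and 154 in siCGGBP1. The lowest siControl library, at 158, lay just above the highest of siCGGBP1, and the log2 fold change was −1.21 ± 0.60 (adjusted p = 0.340). MUS81 was at −0.69 ± 0.40 and the scaffold SLX4 at 0.37 ± 0.60.

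End joining was led by XRCC5, the larger Ku subunit and the most abundant mRNA of the 51. It had 9371, 8884 and 10176 normalized reads in siControl and 6898, 7706 and 8871 in siCGGBP1, a narrow separation of the groups with a log2 fold change of −0.28 ± 0.16 (adjusted p = 0.428). XRCC6, the other Ku subunit, was at −0.44 ± 0.28, PRKDC, their kinase, at −0.18 ± 0.21 and XRCC4, the partner of DNA ligase IV, at 0.66 ± 0.50. LIG4 itself was not tested, with 18.1 to 90.6 reads in siControl and 29.9 to 146 in siCGGBP1. In single-strand break and mismatch repair PARP2 had 598, 781 and 1041 reads in siControl and 294, 392 and 831 in siCGGBP1. Only the first and second siCGGBP1 libraries were below the siControl range (adjusted p = 0.420), and without the third library of both groups the log2 fold change was −0.998 (adjusted p = 0.0808). PARP1 (−0.22 ± 0.22), LIG3 (0.00 ± 0.29) and XRCC1 (0.30 ± 0.23) of the same pathway and MSH6 (−0.31 ± 0.19) of mismatch repair did not pass either.

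**Figure D2:**
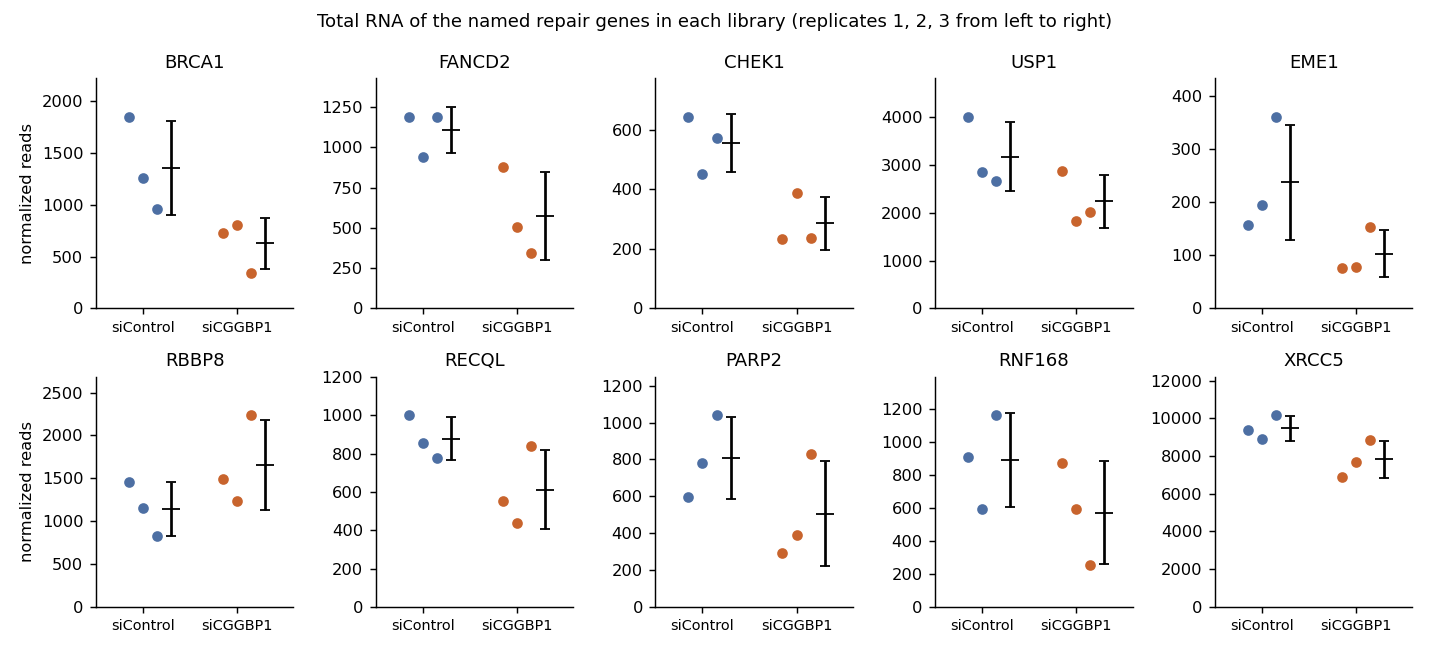
Normalized reads of total RNA in each library (vertical axes start at 0) for the 10 repair genes with the lowest p overall or in their role, with the mean and SD of each group in black. BRCA1, FANCD2, CHEK1, EME1 and XRCC5 show no overlap between siControl (blue) and siCGGBP1 (orange), and RBBP8 is the one with the higher mean in siCGGBP1.

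Several of these proteins work as pairs, so the ratio of normalized reads of both partners was taken within each library. The reads are 3′ end tags, about 1 per transcript, so no length enters the ratio. The 7 pairs were chosen after the values had been seen and carry no test. FANCD2 to FANCI was 1.06, 1.01 and 1.17 in siControl and 0.965, 0.714 and 0.210 in siCGGBP1. ATRIP to ATR was 0.550, 0.962 and 0.635 in siControl and 0.150, 0.430 and 0.411 in siCGGBP1. In both pairs all siCGGBP1 ratios were the lower ones. NBN to RAD50 went the other way, at 0.676 to 0.777 in siControl and 0.800 to 0.906 in siCGGBP1. The ratios of BRCA1 to BARD1, EME1 to MUS81, XRCC5 to XRCC6 and XRCC1 to LIG3 overlapped between the groups.

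Many repair genes are transcribed mainly as cells enter S phase, so they were set beside genes of the cell cycle. The 16 tested repair genes known for higher mRNA in S phase, BRCA1, CHEK1, FANCD2 and EME1 among them, were at −0.33 on the log2 scale in the median, with 13 below 0 and 4 (25.0%) lower without overlap, beside 12.3% of all genes. The other 32 had a median of −0.03, with 17 below 0 and 1 (3.12%) lower without overlap. The difference between these 2 sets was not tested, and the S phase list was chosen with earlier results of these data known. In the S phase reference list (MCM genes, PCNA, ribonucleotide reductase and others) 15 of 16 were below 0, with a median of −0.53, and MCM3 (−0.88 ± 0.20, adjusted p = 0.0484) and MCM5 (−1.46 ± 0.31, adjusted p = 0.0336) passed. In the G2/M reference list (mitotic kinases, cyclins and others) all 16 were below 0, with a median of −0.54, and AURKA, BIRC5 and CENPF passed. With single libraries left out, each of these 5 genes kept its direction, but its adjusted p rose to as much as 0.103 (BIRC5) to 0.155 (CENPF). MCM3 also missed the threshold with a filter at a mean of 10 reads (0.0566) and without the third library of both groups (0.0667). Summed over the list, S phase reads were 42501 to 46653 in siControl and 27106 to 32768 in siCGGBP1, and G2/M reads 61025 to 79264 and 43383 to 47668. Both sums thus moved with the repair genes that were lower, without overlap between the groups, and their part in those values was not tested.

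**Figure D3:**
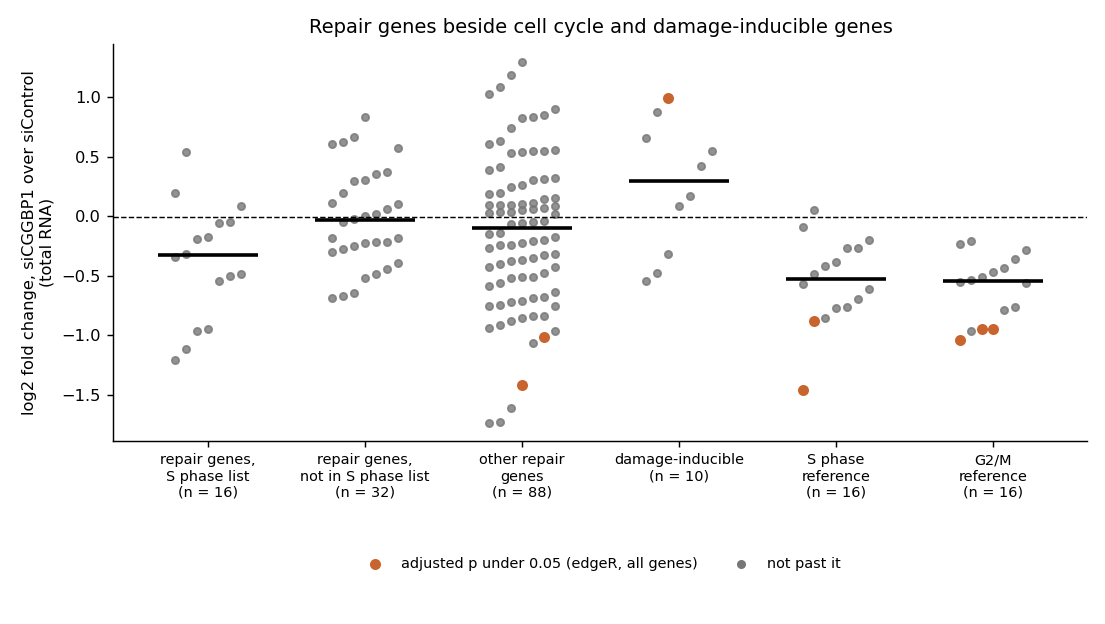
Log2 fold change of total RNA (siCGGBP1 over siControl) of single genes, with a black bar at each list's median, for the repair genes in and outside the S phase list, other repair genes, damage-inducible genes and both cell cycle lists. The dashed line is the median of all tested genes, orange marks an adjusted p under 0.05, and the repair genes of the S phase list have a median of −0.33 between 0 and the −0.53 of the S phase reference.

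Of 95 other genes of DNA repair, 88 were tested, with a median of −0.10 and 48 below 0. In this list 2 (2.27%) passed the threshold by edgeR, both downregulated, beside 1.76% of all genes. By DESeq2 5 passed, among them BABAM2, a partner of BRCA1 complexes at breaks, named after its value was seen, which was higher (log2 fold change 1.02 and adjusted p = 0.0581 by edgeR, adjusted p = 0.00573 by DESeq2). In all 9 pairs 13 (14.8%) lay below and 3 (3.41%) above, beside 12.3% and 12% of all genes. H2AFX, the histone variant phosphorylated around breaks, had 2250, 3013 and 2202 normalized reads in siControl and 1108, 1317 and 1281 in siCGGBP1. It fell by 1.01 ± 0.21 on the log2 scale (adjusted p = 0.0325). CETN2, a centrin that is also part of the damage sensor of nucleotide excision repair, had 922, 607 and 1075 reads in siControl and 308, 402 and 266 in siCGGBP1 and fell by 1.42 ± 0.32 (adjusted p = 0.0455). Both calls were lost whichever single library was left out, with adjusted p of 0.0504 to 0.155 for H2AFX and of 0.0578 to 0.158 for CETN2, and the direction kept. RPA2, a subunit of the single-strand binding complex, was at −0.83 ± 0.43 (adjusted p = 0.364) and MRE11, the nuclease of the RAD50 complex, at 0.54 ± 0.33 (adjusted p = 0.446).

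Genes that p53 induces after damage were looked at as a readout of signalling. Of 12, 10 were tested, with a median of 0.29 and 7 above 0. CDKN1A, the p21 inhibitor of cyclin-dependent kinases, had 2212, 2356 and 2676 normalized reads in siControl and 4330, 5757 and 4325 in siCGGBP1 and was upregulated by 0.99 ± 0.19 on the log2 scale (adjusted p = 0.0222, and up to 0.107 with a single library left out). FDXR (0.87 ± 0.27, adjusted p = 0.119) also did not overlap between the groups, as did DDB2, while MDM2, the ligase that degrades p53, was at 0.08 ± 0.28. By edgeR CDKN1A alone of the 10 passed the threshold, and by DESeq2 FDXR passed as well (adjusted p = 0.0272). In all 9 pairs 3 of the 10 lay higher, beside 12% of all genes.

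Newly made RNA was measured as reads times the new-to-total ratio that GRAND-SLAM estimates for each gene and library. Summed over the 51 genes, T-to-C conversions were 0.269 ± 0.0233 per 100 covered T in siControl and 0.305 ± 0.0598 in siCGGBP1 (SD, n = 3), which differ by less than the spread. The library without 4sU gave 0.0562, the background of the measure, and the 6 labelled libraries 0.242 to 0.362. The new share of the reads of the repair genes was 5.90% ± 0.273 in siControl and 6.01% ± 1.33 in siCGGBP1, and over all genes 4.90% ± 0.436 and 4.93% ± 0.900. The siControl range of the repair genes, 5.67% to 6.20%, lay within that of siCGGBP1, 4.54% to 7.12%.

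**Figure D4:**
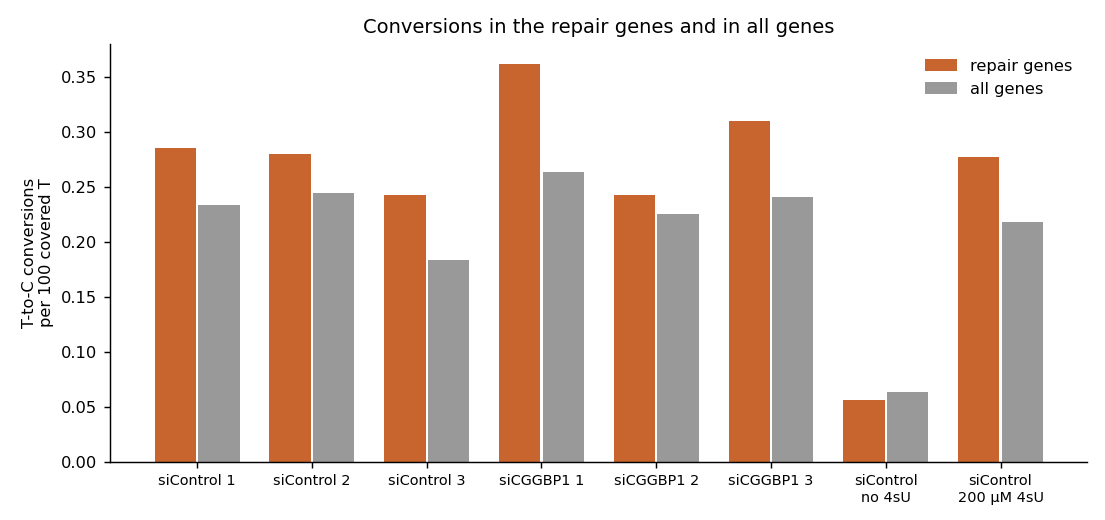
T-to-C conversions per 100 covered T (vertical axis) summed over the 51 repair genes and over all genes, 1 bar a library. The library without 4sU has 0.0562 in the repair genes and all labelled libraries lie between 0.242 and 0.362.

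The ratio of single genes was far less even. It was listed at 0 for 5 to 23 of the 48 tested genes in a siControl library and for 10 to 27 in a siCGGBP1 library, the most in the third library of each group (47.9% and 56.2%, beside 57.4% and 59.8% of all tested genes). In 7 genes it was above 0 in all 6 libraries, namely BARD1, RAD51C, RAD51AP1, USP1, RECQL, XRCC5 and MSH6. USP1 had the steadiest high ratio, at 18.6%, 14.8% and 20.5% in siControl and 22.8%, 17.4% and 27.9% in siCGGBP1. XRCC5, the most abundant, was between 0.01% and 1.97% in the 6 libraries. The siControl reads pooled gave a median ratio of 5.20% over the 48 genes.

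In new RNA no repair gene passed (lowest adjusted p = 0.993), against 0.0493% of all genes, and 2 of 48 had an unadjusted p under 0.05, against 3.15%. By DESeq2 no repair gene passed either. The siCGGBP1 libraries were all lower for 4 of 48 and all higher for 3, where 4.45% and 2.89% of all genes were. The log2 fold change was below 0 for 34 of 48 with a median of −0.31, where 50.8% of all genes were below 0, and the median SE of a repair gene was 2.51, so that only very large changes were detectable.

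FANCD2 had the lowest p among the genes that lay one way in all 9 pairs. Its ratio was 0.32%, 2.52% and 5.77% in siControl, with 90% credible intervals of 0.27% to 1.18%, 2.3% to 4.67% and 4.56% to 7.35%, and was listed at 0 in all siCGGBP1 libraries, with upper limits of 1.03%, 1.53% and 1.17%. The interval of the first siControl library thus reached into those of siCGGBP1. Normalized new reads were 3.48, 23.8 and 68.6 in siControl and 0 in siCGGBP1 (adjusted p = 0.993), and no fold is given against a group at 0. FANCI, its partner, had ratios of 0.80%, 1.10% and 1.42% in siControl and was listed at 0 in siCGGBP1, with upper limits of 0.68%, 1.31% and 0.22%. A ratio listed at 0 was not an absence of conversions. FANCD2 had 23 conversions in 25770 covered T in the first siCGGBP1 library and 22 in 35450 in the first siControl library. FANCI had 17 in 22350 in the second siCGGBP1 library and 18 in 32910 in the second siControl library. Per covered T the conversions of both genes thus overlapped between the groups. Since both genes were named for the separation of their ratios, these are a description and carry no test.

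RBBP8, which had higher total reads in siCGGBP1, had the lower ratios there, at 5.58%, 6.32% and 2.41% in siControl and 1.03%, 0% and 0% in siCGGBP1. The intervals did not overlap, with the lowest siControl limit at 2.17% and the highest siCGGBP1 limit at 2.14% (two-sided exact permutation p = 0.1, the smallest that 3 against 3 libraries can give, adjusted p = 0.36 over 9 genes). Its conversions per covered T did overlap, with 47 in 36130 in the first siCGGBP1 library and 28 in 25190 in the third siControl library. Without the third library of both groups its log2 fold change of total RNA was only 0.075. ATR was listed at 0.98%, 0% and 0% in siControl and at 11.8%, 9.50% and 9.26% in siCGGBP1, with conversions of 15, 2 and 4 against 124, 45 and 104. Its log2 fold change of new RNA was 5.07 ± 3.43 (adjusted p = 0.993), and its ratio was 13.8% in the single siControl library at 200 µM. ATR and RAD51C were named by the same separation rule as FANCD2 and FANCI, so their values too are a description. RAD51C, of homologous recombination, had 4.79%, 4.72% and 0.55% in siControl and 10.6%, 11.2% and 23.5% in siCGGBP1. Its normalized new reads rested on 72 to 131 conversions a library in siControl and 170 to 894 in siCGGBP1 (log2 fold change 2.12 ± 1.29, adjusted p = 0.993). RECQL had 3.87%, 2.19% and 0.53% in siControl and 15.3%, 5.63% and 15.02% in siCGGBP1 (exact permutation p = 0.1, adjusted p = 0.36). In RAD51C and RECQL total reads and ratio went opposite ways, with log2 fold changes of total RNA of −0.25 ± 0.24 and −0.52 ± 0.30. Neither change of total RNA passed (edgeR adjusted p = 0.661 and 0.415), and the total reads of both genes overlapped between the groups.

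BRCA1 shows how far single libraries carry these values, with ratios of 0.25%, 5.89% and 17.3% in siControl and 0%, 1.11% and 0.20% in siCGGBP1 (exact permutation p = 0.2, adjusted p = 0.36). Its groups overlapped only through the first siControl library. The credible intervals of the siControl libraries (0.21% to 1.29%, 4.51% to 7.70% and 14.0% to 21.1%) did not overlap one another, so that the spread between libraries of 1 group exceeded the error that GRAND-SLAM assigns to a library. CHEK1 had 5.49%, 7.06% and 0% in siControl and 0%, 11.4% and 6.50% in siCGGBP1, with no order between the groups.

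**Figure D5:**
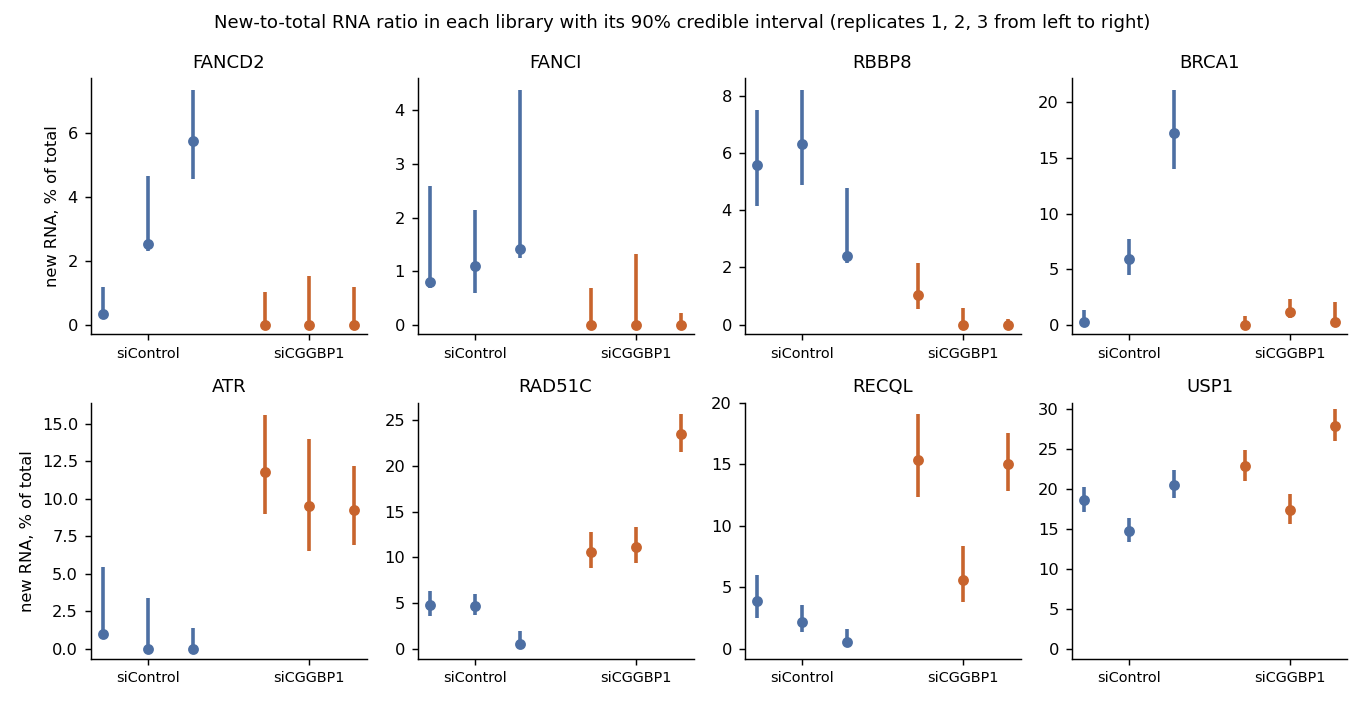
New-to-total ratio in percent with its 90% credible interval in each library for 8 repair genes. FANCD2 and FANCI are at 0 in all siCGGBP1 libraries, ATR, RAD51C and RECQL lie higher there, USP1 is 14.8% to 27.9% in both groups, and the siControl libraries of BRCA1 spread from 0.25% to 17.3%.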

How the data were processed

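RNA of U-2OS Tet-ON cells was read with Lexogen QuantSeq 3′ V2 libraries after alkylation. Per the labels and the study's methods, reads were filtered and aligned with Bowtie2 2.3.0 and STAR 2.5.3a to GRCh38, and GRAND-SLAM was run. The authors deposited estimated counts per gene (reads that can be fractional), the new-to-total ratio as a fraction with credible limits, and T-to-C conversions with covered T; no removal of duplicate reads is stated. Here the estimated counts were rounded and tested with edgeR 4.0.16 (TMM, quasi-likelihood, Benjamini-Hochberg) on genes that reached 100 reads in 3 or more of the 6 libraries. New RNA was reads times ratio, scaled by the total reads. DESeq2 1.42.0, limma 3.58.1, other filters and left-out libraries were alternatives. The fits were tested on simulated data.

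The members and gene lists were chosen with earlier results of these data known. Named with values in every library were CGGBP1, the 8 members with the lowest adjusted p in total RNA, the lowest of each role, the 4 lowest in new RNA that moved one way in all 9 pairs, and other repair genes past the threshold with MRE11 and RPA2, and 1 further gene of that rule is not reported here. Other members are given by fold change. Leaving out the third library of both groups was chosen after seeing the data. Conversions and spike-ins were not used to rescale the counts. The libraries with 0 and 200 µM 4sU are single and enter no test.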

Additional observations from a re-analysis of the deposited data

Results flagged for a closer look

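The siControl library labelled with 200 µM 4sU stands outside the comparison and was looked at for that reason. Summed over the 51 repair genes 0.277 conversions fell on 100 covered T, against 0.0562 without 4sU and 0.269 ± 0.0233 (SD, n = 3) in siControl at 75 µM. Its new share of the reads of the repair genes was 11.3%, against 5.90% ± 0.273 at 75 µM, although the conversion rate was within the range of those libraries. Over all genes the new share likewise was 8.14%, against 4.90% ± 0.436 in siControl at 75 µM. The conversion rate over all genes was 0.218, against 0.221 ± 0.0329. Single genes differed widely from the 75 µM siControl libraries, with a ratio of 58.1% for RBBP8 (2.41% to 6.32% at 75 µM) and of 0% for FANCD2. With 1 library there is no replicate check, and the cause was not tested.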

How the results depend on the processing

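The count of repair genes called in total RNA went from 0 to 1 with DESeq2, to 1 with no filter on low counts, to 1 with the replicate block and to 1 without replicate 3 of both groups, an alternative added after seeing the data. Each time it was BRCA1 (adjusted p = 0.0327, 0.0105, 0.04996 and 0.0395). The count stayed at 0 whichever single library was left out. In the main test 1.76% of all genes passed. By DESeq2 it was 1 of 47 repair genes, beside 6.76% of all genes. Without replicate 3 of both groups 406 of the 10138 genes passed. For the fit with no filter and for the replicate block the share of all genes is not given here. No label says that the replicate numbers pair the libraries, and the main test does not use them. Same-numbered libraries correlated at 0.109, 0.182 and 0.0886 in their deviations from the group means. Those with different numbers correlated at −0.104 to −0.0244, and each library correlated best with its own number. In new RNA the count was 0, also with the replicate block, and 1 with conversion counts (PALB2, with 1285 of its conversions in siCGGBP1 replicate 3). Promoter CGG tracts went from 6.52% to 52.2% of windows at 2 repeats. All genes called in total RNA numbered 178, and 619 by DESeq2, 477 without the filter, 418 at an adjusted p under 0.1 and 48 to 75 without siControl 1, 2 or 3 or siCGGBP1 1 or 2, and 406 without replicate 3 of both groups. In new RNA they were 5, 27 by DESeq2, 24 by conversion counts, 2 with the block and 0 by limma.

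Repair genes lower in all pairs in total RNA numbered 5 (10.4%), and 5 to 14 (10.4% to 29.2%, beside 16.2% to 18.2% of all genes) with 1 library left out. The share exceeded that of all genes by most without siCGGBP1 replicates 3 (29.2%, beside 18.2%) and 1 (22.9%, beside 17.1%). In new RNA they were 4. Without siControl replicate 1, 2 or 3 they were 8 (16.7%, beside 7.91%), 5 (10.4%, beside 6.75%) and 7 (14.6%, beside 14.3%). Leaving out siCGGBP1 replicate 1, 2 or 3 gave 5 (10.4%, beside 8.52%), 9 (18.8%, beside 7.3%) and 4 (8.33%, beside 6.34%). Without replicate 3 of both groups they were 8 (16.7%, beside 19.1%). CGGBP1 missed the threshold without siControl replicate 1 (adjusted p = 0.0632) or siCGGBP1 replicate 1 (0.0851). CETN2 passed it in only 3 of the 6 alternatives other than a single left-out library, with the highest adjusted p there under the replicate block (0.0708). No named gene reversed its direction. Ratios and conversion counts rest on reads for which no use of molecular identifiers is stated.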

Other observations

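The unlabelled library showed conversions that were spread unevenly over the repair genes. The median gene had 0.0117 per 100 covered T, against 0.243 in the pooled siControl libraries, but XRCC2 had 2.49, above its own siControl rate of 1.95. MUS81 (0.469, against 0.253) and PARP2 (0.218, against 0.176) were also above their siControl rates, as were TP53BP1, PARP1 and CHEK2. The 5 genes with the most took 53.2% of the unlabelled conversions of the 51. FANCD2, FANCI, RBBP8, ATR, RAD51C and RECQL were not among the 6 genes whose unlabelled rate reached their siControl rate, with 0.0049 to 0.0429 per 100 covered T.

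The libraries differed in how often they held the highest or lowest value of a repair gene among the 6. The second siCGGBP1 library was the lowest for 13 of 48 and the highest for 0, and the third was the highest for 13 and the lowest for 11 (50.0% of the genes at an extreme, beside 51.2% of all tested genes). The first siControl library was the highest for 15 (43.8% at an extreme, beside 26.4% of all genes). The third siControl library was also the highest for 15 and the lowest for 8 (47.9% at an extreme, beside 46.8% of all genes).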
